A study of Homo sapiens with 3 samples.

Results

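The 7 genes of the CIP/KIP and INK4 families of CDK inhibitors, CDKN1A, CDKN1B, CDKN1C, CDKN2A, CDKN2B, CDKN2C and CDKN2D, were taken by their exact symbols from the 50868 genes counted, and each symbol had 1 row. They were followed in NCI-H23, an established human lung adenocarcinoma cell line. There was 1 mRNA library from cells transfected with control siRNA and there were 2 libraries from cells transfected with siRNA against USP16, called knockdown libraries 1 and 2 after their titles. Neither a further treatment nor a time after transfection is given in the sources used here, and the titles do not say whether 1 and 2 are different siRNAs or different cultures.

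CDK inhibitors are small proteins that hold back the cyclin-dependent kinases, which drive the cell cycle. The CIP/KIP proteins p21 (CDKN1A), p27 (CDKN1B) and p57 (CDKN1C) bind whole cyclin-CDK complexes, above all those of CDK2, whereas the INK4 proteins p16 (CDKN2A), p15 (CDKN2B), p18 (CDKN2C) and p19 (CDKN2D) bind CDK4 and CDK6 and keep cyclin D away. With CDK4 and CDK6 held back, the RB protein stays bound to E2F factors and S phase genes stay low. USP16 removes ubiquitin from histone H2A, a mark that Polycomb complexes place at silenced genes such as the INK4 locus, and work in stem cells has tied USP16 to CDKN2A.

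In these libraries the 3 CIP/KIP genes had lower levels in knockdown libraries 1 and 2 than in the control library. CDKN1A had 25.3% and 51.7% of its control level, the lowest share in library 1. The rarer CDKN1C had 37.1% and 51.8%, so in library 2 these genes were alike, and CDKN1B had 67.0% and 57.9%. Among the INK4 genes, CDKN2A was close to its control level in both knockdown libraries, at 88.1% and 102%. CDKN2B was level with the control in knockdown library 1 and 2.01-fold higher in knockdown library 2. CDKN2D was lower in both, at 92.3% and 57.6%, and CDKN2C was at 106% and 77.4%. The share of all genes tested that were lower in both libraries was 33.5%. None of the 7 passed the test over all genes, and the comparison rests on 1 control library. In such bulk samples, fewer cells that express a gene and less of its RNA per cell cannot be told apart.

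The libraries held 14007161 counts in the control, 13956382 in knockdown library 1 and 15071179 in knockdown library 2. USP16 had 632, 109 and 245 counts in that order, which is 83.8% and 66.8% below the control after scaling. Even so, USP16 did not pass over all genes (edgeR quasi-likelihood test, unadjusted p = 0.00142, adjusted p = 0.561). A gene that did not pass here is therefore not shown to be unchanged. Keratin genes of epithelial cells were present in every library: KRT8 and KRT18 each had between 1118 and 3364 counts. Other epithelial markers were rarer: KRT19 had 62, 55 and 52 counts, KRT7 had 81, 23 and 49, and CDH1 had 142, 39 and 93. The 6 epithelial markers summed to 409, 239 and 365 CPM (the count divided by the scaled library total). Of the 6, 5 were lower in both knockdown libraries, and EPCAM, with 38, 161 and 232 counts, was higher in both. The shares of all genes tested were 33.5% lower and 33.4% higher in both. For 4 leukocyte markers the sums were 6.83, 8.96 and 3.99 CPM. Of these, CD3E had 0 counts in all libraries and CD14 had 91, 114 and 59. The sums were 0.451, 0.423 and 0.772 CPM for 3 endothelial markers, and 5.41, 6.35 and 11.3 CPM for 4 fibroblast markers. Of the fibroblast markers, LUM had 20, 26 and 140 counts and PDGFRA had 47, 55 and 27. DCN had 0, 2 and 2 counts and COL1A2 had 5, 7 and 6. The epithelial sum was lowest in knockdown library 1, where CDKN1A was lowest too; its part in the CDKN1A values was not tested.

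Stretches of DNA are shown first, for genes whose values stand apart below and for the neighbour of one of them. CDKN2A and CDKN2B lie side by side on chromosome 9 and are close relatives in sequence. Of the 50-base windows in their transcripts, 0.681% of those of CDKN2A and 0.765% of those of CDKN2B were shared between them. Upstream of their start sites, CDKN1A and CDKN2B have GC boxes, the letters GGGCGG to which the factor SP1 binds. The sequences below are the longest runs outside every annotated exon within the 250 bases before a RefSeq start site (GRCh38.p14), each read on the strand of its gene, with GC boxes on either strand in capitals. The CDKN1A run is chr6:36678560-36678657 (plus strand) and ends 56 bases before the start site. The CDKN2B run is chr9:22009364-22009555 (minus strand) and ends 58 bases before it. The CDKN2A run is chr9:21995325-21995481 (minus strand), next to the start of the transcript of ARF, a second protein made from CDKN2A.
CDKN1A upstream run: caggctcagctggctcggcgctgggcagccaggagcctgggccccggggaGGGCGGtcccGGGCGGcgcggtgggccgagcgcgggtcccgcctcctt
CDKN2B upstream run: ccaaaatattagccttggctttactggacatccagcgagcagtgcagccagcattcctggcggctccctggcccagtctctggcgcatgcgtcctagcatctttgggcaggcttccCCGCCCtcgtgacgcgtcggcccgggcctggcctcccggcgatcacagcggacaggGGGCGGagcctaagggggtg
CDKN2A upstream run, ARF start: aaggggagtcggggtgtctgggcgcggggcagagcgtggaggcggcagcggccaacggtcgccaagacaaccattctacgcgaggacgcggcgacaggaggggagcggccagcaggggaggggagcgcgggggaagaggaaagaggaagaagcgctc
The CDKN1A and CDKN2B runs hold 2 GC boxes each and the CDKN2A run holds none. Over the whole 250 bases, CDKN1A has 4 and CDKN2B 2, against at least 1 in 42.6% of 35116 RefSeq windows of the same length. RefSeq windows were matched for 6 of the 7 genes, and the CDKN1A window was 76.4% G and C, against a median of 58.0% for all windows. Another window, of CDKN2C, was higher still, at 77.2%, with 5 GC boxes. The window of CDKN2D had 2 GC boxes, as many as that of CDKN2B, and the window of CDKN1B had 1. A further CDKN2A window, at chr9:21974858-21975107, also had 1, so GC boxes do not set CDKN1A and CDKN2B apart. A match is a description of the letters and no measure of binding.

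Levels between genes are compared per length, as scaled CPM per kilobase of annotated exon with an exact Poisson 95% interval that covers counting error only. In the control, CDKN1A was the most abundant of the 7, at 72.3 CPM per kb (69.7 to 74.9), above 96.8% of the 17190 tested genes that have a length. CDKN1B followed at 30.1 (28.4 to 31.9) CPM per kb and CDKN2A at 9.47 (8.70 to 10.3). CDKN2B stood at 4.41 (3.86 to 5.0) CPM per kb, near the median of 3.88 over these genes. The intervals of CDKN2C, at 3.08 (2.58 to 3.64), and CDKN2D, at 2.90 (2.20 to 3.75), overlapped, so these neighbours in the order do not differ beyond counting error. CDKN1C was lowest, at 1.15 (0.815 to 1.58) CPM per kb.

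The order was not the same in the knockdown libraries. In knockdown library 1 CDKN1A, at 18.3 CPM per kb (17.0 to 19.6), was no longer above CDKN1B, at 20.2 (18.8 to 21.6), and their intervals overlapped. In knockdown library 2 CDKN1A was again the highest, at 37.4 (35.7 to 39.2) CPM per kb, and CDKN2B, at 8.86 (8.14 to 9.62), came to overlap CDKN2A, at 9.65 (8.93 to 10.4). CDKN2C and CDKN2D overlapped each other in both knockdown libraries, and CDKN2B and CDKN2C met at the edge of their intervals in library 1. CDKN1C stayed lowest, at 0.427 and 0.597 CPM per kb. The place of CDKN2A depends on the length used, since its 14 annotated transcripts cover 4329 bases of exon while the longest holds 1283: per kb of the longest transcript it had 32.0 CPM in the control, beside 31.9 for CDKN1B.

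**Figure D1:**
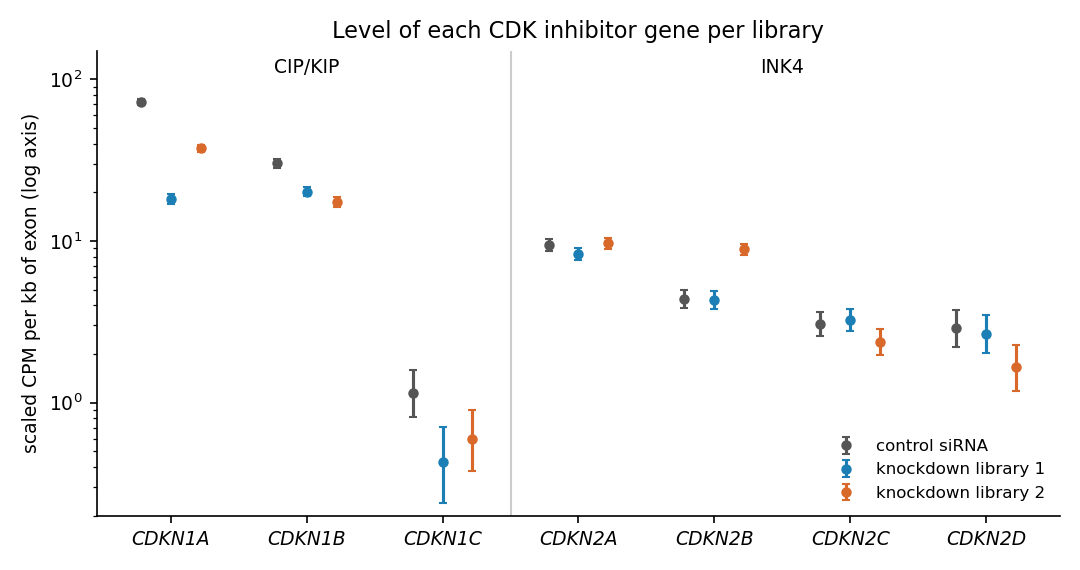
Scaled CPM per kilobase of annotated exon (log axis) for each CDK inhibitor gene in the control and the 2 knockdown libraries; points are single libraries and bars are exact Poisson 95% intervals. CDKN1A is at 72.3 in the control and at 18.3 and 37.4 in the knockdown libraries, while the 3 values of CDKN2A lie between 8.34 and 9.65.

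CDKN1A (ENSG00000124762, chromosome 6, 36676460 to 36687339, plus strand, hg38) encodes p21, which stops CDK2 and binds PCNA, and is known to be induced by DNA damage. It had 2935 counts in the control, 790 in knockdown library 1 and 1773 in knockdown library 2, or 220, 55.7 and 114 CPM. The control was highest and knockdown library 1 lowest. No pair of the 3 Poisson intervals overlapped, but these cover counting error only and are narrow at such counts. How many of all genes show the same was not counted. Its log2 changes against the control were -1.98 and -0.95, with a mean of -1.47 ± 0.73 (SD, n = 2), an SD over the knockdown libraries that takes no account of how the single control may vary. CDKN1A did not pass over all genes (edgeR quasi-likelihood test, unadjusted p = 0.0106, adjusted p = 0.879). Over the alternatives its edgeR adjusted p was lowest, 0.205, when no filter was used, and highest, 1.0, when only genes averaging at least 100 counts were kept. DESeq2 gave a log2 change of -1.37 with a standard error of 0.56. With knockdown library 1 left out the log2 change is -0.95, and with library 2 left out it is -1.98, so the size depends on the library.

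The distance between the knockdown libraries was itself about as large as the change in library 2. CDKN1A was 2.05-fold higher in knockdown library 2 than in library 1 (exact binomial 95% interval 1.88 to 2.23, counting error only). USP16 was 2.05-fold higher in library 2 as well (1.63 to 2.59), with 245 counts against 109. These are single libraries, so neither difference was tested as one between siRNAs. CDKN1A made up 71.6% of the summed CIP/KIP counts in the control, 49.1% in knockdown library 1 and 69.3% in library 2.

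CDKN1B (ENSG00000111276, chromosome 12, 12715058 to 12722371, plus strand) encodes p27, which restrains CDK2 in resting cells. It had 1128, 805 and 763 counts, or 84.7, 56.8 and 49.1 CPM. Both knockdown libraries were below the control and close to each other, at 67.0% and 57.9% of the control level. Its log2 changes were -0.58 and -0.79, the most even pair among the CIP/KIP genes, with a mean of -0.68 ± 0.15 (SD, n = 2). It did not pass (edgeR, unadjusted p = 0.126, adjusted p = 0.999).

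CDKN1C (ENSG00000129757, chromosome 11, 2883213 to 2885773, minus strand) encodes p57, the inhibitor of an imprinted locus. It was rare, with 38, 15 and 23 counts, or 2.85, 1.06 and 1.48 CPM. The control was the highest of the 3, but the interval of the control, 2.02 to 3.92 CPM, overlapped that of knockdown library 2, 0.937 to 2.22. The ratio to the control was 0.371 in knockdown library 1 (exact binomial 95% interval 0.190 to 0.690) and 0.518 in library 2 (0.295 to 0.892). At these counts the log2 changes, -1.32 and -0.89, shrink to -1.02 and -0.71 with a prior count of 10, and the gene did not pass (edgeR, adjusted p = 0.999). The summed CIP/KIP level was 308 CPM in the control, 114 in knockdown library 1 and 165 in library 2, most of it CDKN1A and CDKN1B.

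CDKN2A (ENSG00000147889, chromosome 9, 21967753 to 21995301, minus strand) encodes p16 and, from another start and reading frame, ARF, which binds MDM2. Its 1 row in the counts pools the transcripts of both, so p16 and ARF cannot be told apart here. It had 546, 512 and 650 counts, or 41.0, 36.1 and 41.8 CPM. All 3 Poisson intervals overlapped: the control spanned 37.6 to 44.6 CPM, knockdown library 1 33.1 to 39.4 and library 2 38.6 to 45.1. Its log2 changes were -0.18 and 0.03, the smallest mean in size of the 7 genes, -0.08 ± 0.15 (SD, n = 2). The ratio to the control lay between 0.779 and 0.996 in knockdown library 1 and between 0.908 and 1.14 in library 2 (exact binomial 95% intervals), which covers counting error only, and the edgeR adjusted p was 0.999.

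CDKN2B (ENSG00000147883, chromosome 9, 22002903 to 22009363, minus strand) encodes p15, an INK4 inhibitor known as a target of TGF-beta signalling. It had 238, 249 and 559 counts, or 17.9, 17.6 and 35.9 CPM. The control and knockdown library 1 were alike and knockdown library 2 stood above both, so the knockdown values straddle the control. Its log2 changes were -0.02 and 1.00, with a mean of 0.49 ± 0.73 (SD, n = 2) and an edgeR adjusted p of 0.999. When only genes averaging at least 100 counts were kept, the library 1 value was 0.0031, on the other side of 0. CDKN2B was 2.05-fold higher in library 2 than in library 1 (exact binomial 95% interval 1.76 to 2.38). Library 2 was thus above library 1 for CDKN2B as for CDKN1A, while the control matched library 1 for CDKN2B and was above both for CDKN1A.

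CDKN2C (ENSG00000123080, chromosome 1, 50960745 to 50974633, plus strand) encodes p18 and had 136, 153 and 123 counts, or 10.2, 10.8 and 7.91 CPM. Its log2 changes were 0.08 and -0.36, and all 3 intervals overlapped. CDKN2D (ENSG00000129355, chromosome 19, 10566462 to 10569059, minus strand) encodes p19 and had 58, 57 and 39 counts, or 4.36, 4.02 and 2.51 CPM. Its log2 changes were -0.11 and -0.76, with library 2 lowest. The ratio of library 2 to the control was 0.576 for CDKN2D (exact binomial 95% interval 0.373 to 0.879) and 0.774 for CDKN2C (0.602 to 0.995). Neither passed (edgeR, adjusted p = 0.999 for each). The summed INK4 level was 73.5, 68.5 and 88.2 CPM. CDKN2B was the INK4 gene whose library 2 interval, which covers counting error only, lay above that of the control.

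**Figure D2:**
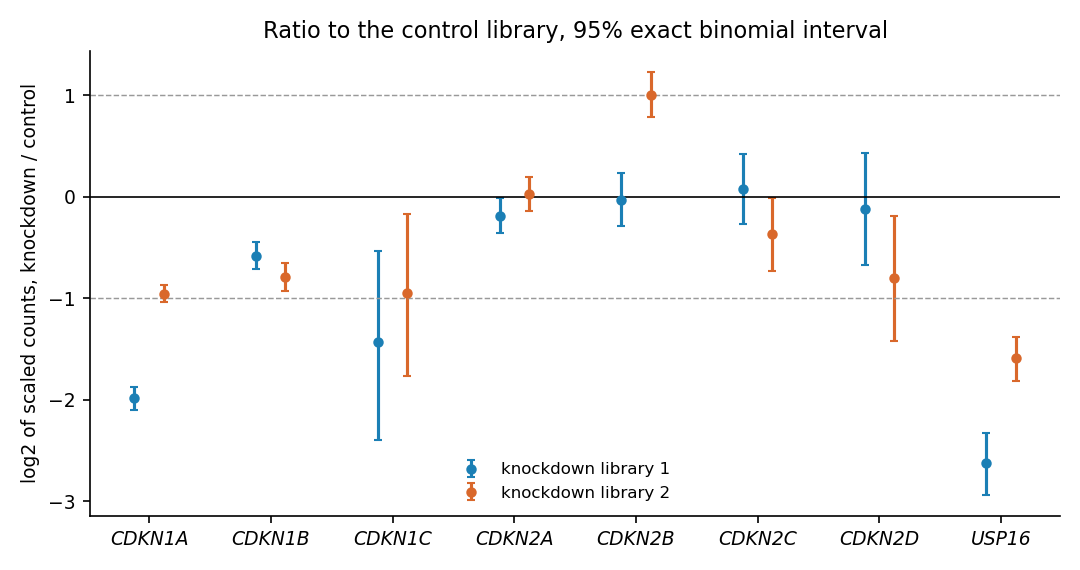
Log2 ratio of scaled counts, knockdown library over control, for each CDK inhibitor gene and USP16; points are single libraries with no prior count, bars are exact binomial 95% intervals for counting error, and dashed lines mark 2-fold. CDKN1A lies below 0 in both libraries, CDKN2A stays near 0 in both, and CDKN2B lies at the 2-fold line in knockdown library 2.

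Set against all genes tested, the counts were as follows. With edgeR and a threshold of 0.05 on the adjusted p, 0 of the 7 genes passed in either direction, where 0.0174% of 17287 genes passed with a lower level and 0.0% with a higher one. DESeq2 called 0 of the 7 as well, against 0.0897% of the genes to which it gave an adjusted p. At an unadjusted p under 0.05 there was 1 of the 7, CDKN1A, where 4.88% of all genes had such a value. Of the 7, 4 were lower in both knockdown libraries (CDKN1A, CDKN1B, CDKN1C and CDKN2D) against 33.5% of all genes, 0 were higher in both against 33.4%, and 3 were opposite in sign. By size, 0 of the 7 were 2-fold lower in both libraries against 1.68% of all genes, and 0 were 2-fold higher in both against 3.75%. In knockdown library 1, 2 of the 7 were 2-fold lower (CDKN1A and CDKN1C) against 5.55%, and 0 were 2-fold higher against 7.05%. In library 2, 1 was 2-fold higher (CDKN2B) against 9.94%, and 0 were 2-fold lower against 8.97%. CDKN2B lies on that limit, and its log2 change in library 2 was below 1 with no filter (0.99) and with a prior count of 10 (0.98). The 7 genes had a median mean log2 change of -0.44, where all genes tested had -0.02. CDKN1A lay at percentile 0.8 of all changes in library 1 and 9.8 in library 2, and CDKN2A at 35.6 and 51.8. Both knockdown libraries were set against the same control library, so a low or high control value moves both changes together.

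**Figure D3:**
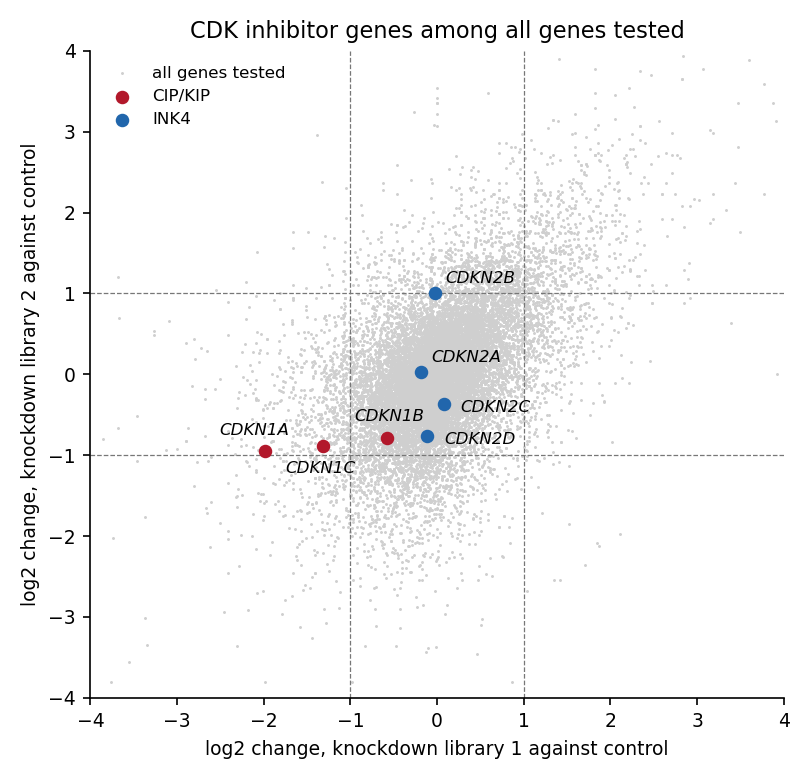
Log2 change against the control in knockdown library 1 (x axis) and knockdown library 2 (y axis) for all genes tested (grey, 32 genes beyond the axes not drawn), CIP/KIP genes (red) and INK4 genes (blue); dashed lines mark 2-fold. The 3 CIP/KIP genes lie in the lower left, with CDKN1A at -1.98 and -0.95, and CDKN2B lies on the upper 2-fold line of library 2.

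The genes with changes nearest to those of CDKN1A, by Euclidean distance between the pairs of log2 changes among 11235 genes averaging at least 100 counts, were FGFRL1, HJURP and SLC19A2. FGFRL1, a receptor of the FGF receptor family without a kinase domain, had 640, 161 and 391 counts and lay at a distance of 0.0889. HJURP, the chaperone that places CENP-A at centromeres, had 2070, 516 and 1169 counts (0.146). SLC19A2, a thiamine transporter, had 347, 105 and 212 counts (0.187). The likeness rests on 3 libraries.

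The values of near neighbours on the chromosome are given for comparison. SRSF3, a splicing factor gene and the nearest tested gene on the left of CDKN1A at 70.9 kb, had 2965, 3185 and 3133 counts (log2 changes 0.01 and -0.14), and PPIL1 on the right was at 0.32 and 0.58. Beside CDKN1B, which was lower in both, APOLD1 at 3.5 kb had 88, 222 and 361 counts (1.23 and 1.79) and GPR19 at 18.9 kb had 60, 143 and 123 counts (1.14 and 0.79). At the INK4 locus MTAP, a gene of methionine salvage 30.1 kb from CDKN2A, had 174, 239 and 158 counts (0.36 and -0.36). CDKN2B-AS1, the antisense RNA also called ANRIL, had 10, 13 and 21 counts, and DMRTA1 had 28, 53 and 21. CDKN2A-AS1 had 0 counts in each library. Of the 3 neighbours tested at this locus, 1 was higher and 0 were lower in both libraries, against 33.4% and 33.5% of all genes. FAF1, 0.5 kb from CDKN2C, had 988, 324 and 1127 counts (-1.69 and -0.03), a drop in library 1 that CDKN2C did not show. None of the neighbours that were tested passed (edgeR, adjusted p between 0.984 and 0.999), and CDKN2A-AS1 was not tested. CDKN2B-AS1 overlaps 341 exonic bases of CDKN2A on the other strand, and DINOL, not analysed here, overlaps 146 exonic bases of CDKN1A on the other strand, so without a stated use of strand these reads cannot be told apart.

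Among 15 genes of kinases, cyclins and other partners of the inhibitors, 7 had lower and 1 had higher levels in both knockdown libraries. Over all genes tested, 33.5% were lower and 33.4% higher in both. Of the 15, 0 passed over all genes (edgeR), and the median mean log2 change was -0.22. CDK4 had 1903, 1587 and 2124 counts (log2 changes -0.35 and -0.07), CDK6 had 60, 73 and 54 (0.19 and -0.36), and CDK2 had 788, 858 and 666 (0.03 and -0.47). CCND1, which encodes cyclin D1, the partner that INK4 proteins displace, was lower in both, with 22204, 7325 and 10971 counts (-1.69 and -1.24). CCNE1, cyclin E1, was at -0.52 and -0.38, and CCNA2, cyclin A2, at -0.12 and -1.04. CDK7, the kinase that activates other CDKs, was the 1 gene higher in both, with 261, 482 and 548 counts (0.79 and 0.84).

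Of the 13 genes of the RB and E2F families, 8 were lower and 3 higher in both libraries, against 33.5% and 33.4% of all genes. None passed (edgeR), and the median mean log2 change was -0.22. RB1 had 770, 971 and 1002 counts (0.24 and 0.16), and its relative RBL1, p107, had 559, 897 and 1106 (0.59 and 0.76). E2F2, an activating E2F, had 936, 603 and 345 counts (-0.72 and -1.66), and E2F7, a repressing one, had 899, 550 and 480 (-0.80 and -1.13). E2F3 was at -1.44 and -0.19, so its knockdown libraries differ from each other more than library 2 does from the control.

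The 22 transcription factors known to act on these promoters had 9 genes lower and 9 higher in both libraries. The shares of all genes were 33.5% and 33.4%. There were 0 past the threshold (edgeR), and the median was 0.03. TP73, a factor that acts on CDKN1A, had 260, 121 and 87 counts (-1.18 and -1.78), and TP63 had 11, 62 and 82 (2.22 and 2.49). SMAD3, which carries TGF-beta signals to CDKN2B and CDKN1A, was lower in both libraries, with 10504, 5698 and 4237 counts (-0.97 and -1.53). Its part in the values of CDKN2B and CDKN1A was not tested. ETS1, an activator of CDKN2A, had 647, 169 and 561 counts (-2.01 and -0.43).

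Of 23 genes known to be induced along with CDKN1A after DNA damage or stress, 13 were lower and 4 higher in both libraries. Among all genes it was 33.5% and 33.4%. Past the threshold there were 0 (edgeR), and the median was -0.19. MDM2, a ubiquitin ligase, had 1182, 727 and 846 counts (-0.79 and -0.71). GDF15, a stress cytokine, was lower by more than CDKN1A, at -2.18 and -2.92, and its order of the knockdown libraries was the reverse of that of CDKN1A. TNFRSF10B, a death receptor, had 3225, 976 and 3009 counts (-1.81 and -0.32), with library 1 lowest as for CDKN1A.

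Of 19 Polycomb subunits and histone demethylases known at the INK4 locus, 9 were lower and 3 higher in both libraries. This compares with 33.5% and 33.4% of all genes. None passed (edgeR), and the median was -0.13. BMI1 had 1342, 1499 and 1243 counts (0.07 and -0.33), and EZH2, the enzyme that methylates histone H3, had 1608, 1140 and 1335 (-0.59 and -0.49). PHC1 was lower in both, with 874, 493 and 300 counts (-0.91 and -1.76), as was CBX6 (-0.49 and -0.90). KDM2B, a demethylase that brings a Polycomb complex to CpG islands, had 315, 715 and 475 counts (1.09 and 0.37).

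Genes of p21, p27 and p57 turnover had mixed values. Of 13, 5 were lower and 4 higher in both libraries, near the 33.5% and 33.4% of all genes. None passed (edgeR), and the median was -0.04. SKP2, the ligase subunit that recognises p27, had 475, 319 and 668 counts (-0.66 and 0.27). DTL, which directs the turnover of p21 in S phase, was at -0.67 and -0.04, UBAC1 at 0.28 and 0.76, and PSME3, a proteasome activator, at -0.44 and -0.40. SKP1 was at -0.09 and -0.53. Protein levels were not measured.

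Other restraints on CDKs gave 5 genes lower and 3 higher in both of 12, with 0 passing (edgeR) and a median of -0.05. Among all genes, 33.5% were lower and 33.4% higher in both. BCCIP, a partner of p21, had 1285, 1893 and 2097 counts (0.47 and 0.48), PKMYT1, a kinase that blocks CDK1, was at -0.51 and -0.37, and CDK2AP1 and CDK2AP2 were at 0.43 and 0.17 and at -0.24 and -0.38. Of 15 replication and proliferation markers, 7 were lower and 4 higher in both, beside the same shares of all genes. None passed (edgeR), and the median was -0.20. TYMS, thymidylate synthase, had 4263, 3211 and 3066 counts (-0.50 and -0.70), MCM5, a helicase subunit, was at -0.36 and -0.84, and RRM2 at -0.44 and -0.28. FOXM1, a factor of mitotic genes, was at 1.13 and 0.18.

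**Figure D4:**
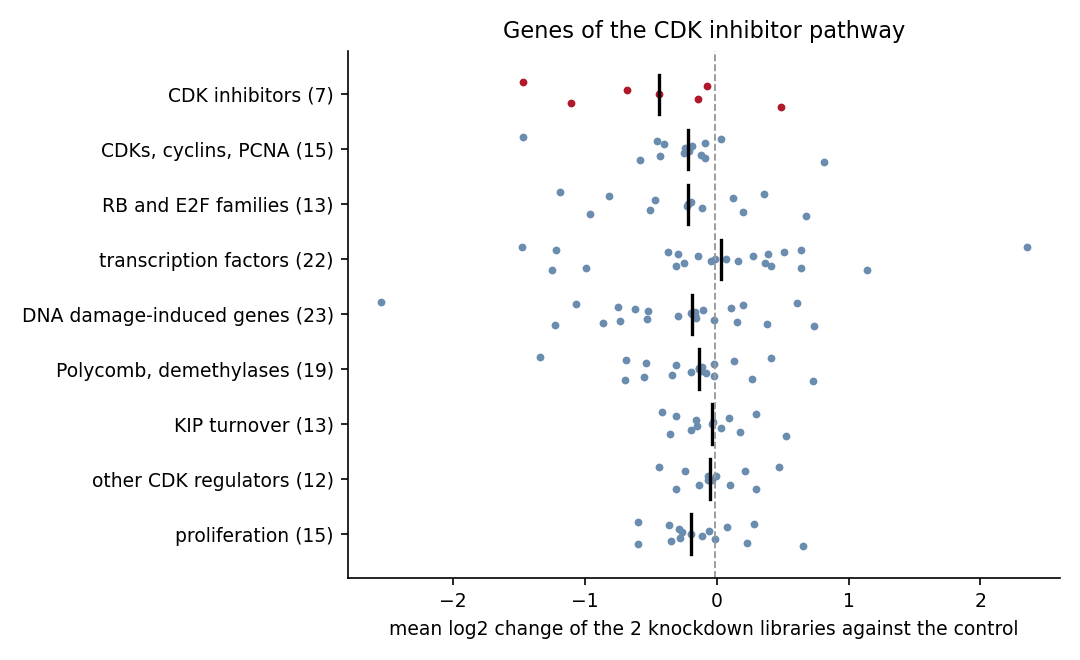
Mean log2 change of the 2 knockdown libraries against the control (x axis) for the CDK inhibitor genes (red) and for the genes of each related list (blue), with the number tested in brackets; black bars are list medians and the dashed line is the median of all genes tested, -0.02. The CDK inhibitor genes spread from -1.47 for CDKN1A to 0.49 for CDKN2B.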

How the data were processed

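Per the file headers, the authors deposited read counts per gene, as whole numbers, for 1 control and 2 knockdown libraries. The count column of the second knockdown sample carries the number 6 where its title has 2, and the title was followed. Of tools and builds, HISAT2 2.0.4, StringTie 1.3.0 and hg38 appear in the submitters' processing notes, without roles. How reads were counted, with or without strand, and against which annotation is not given in the sources used here, so reads of overlapping genes cannot be told apart. Of the identifiers, 98.5% matched GENCODE release 29, on the same build, which gave positions and lengths.

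Low counts were removed with filterByExpr of edgeR 4.0.16 (R 4.3.3), which left 17287 genes. All 7 CDK inhibitor genes were above its 0.714 CPM in every library. Counts were scaled by TMM (factors 0.952, 1.02 and 1.03) and tested with the quasi-likelihood test, with Benjamini-Hochberg adjustment over all genes and a threshold of 0.05. The 2 knockdown libraries gave 1 residual degree of freedom, and the single control is taken to vary as they do. No source says that they are separate cultures, so p-values reflect the spread of these libraries, perhaps technical only. Log2 changes are differences of log2 CPM with a prior count of 2. Intervals (95%) cover counting error only. When tested on simulated data, the script recovered the median size of known changes. That simulation had less spread between libraries than these data, whose common dispersion was 0.105. It changed only genes averaging at least 100 counts, so it does not speak for rarer genes such as CDKN1C and CDKN2D.

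The genes, lists and naming rule were chosen with earlier results of these data known. Named are the 7 genes, USP16, 10 fixed genes, and per list up to 4 genes with the largest mean change among those with a mean of at least 50 counts and 1 sign in both libraries. KRT8, KRT18, KRT19, KRT7, CDH1, EPCAM, CD3E, CD14, LUM, PDGFRA, DCN and COL1A2 are among the markers listed for the check of the cell type. Some items that these rules name are not reported here. Neighbours and the rarer genes of the INK4 locus were chosen after seeing the data. Alternatives were DESeq2 1.42.0, median-ratio size factors, no filter, keeping genes that average at least 100 counts, a prior count of 10, each knockdown library left out and another gene length.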

Additional observations from a re-analysis of the deposited data

How the results depend on the processing

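Under other filters, scalings, prior counts and DESeq2, 33 of 33 recomputed log2 changes of the 7 CDK inhibitor genes kept the direction of their mean, with adjusted p-values above 0.05. This count leaves out CDKN1C and CDKN2D with a minimum mean of 100 counts, where they were not tested. With 1 knockdown library left out there is no residual degree of freedom and no test. Values are given with library 1 left out and then with library 2 left out. They are -0.95 and -1.98 for CDKN1A, -0.79 and -0.58 for CDKN1B, and -0.89 and -1.32 for CDKN1C. CDKN2A has 0.03 and -0.18, and CDKN2B has 1.00 and -0.02. CDKN2C has -0.36 and 0.08, and CDKN2D has -0.76 and -0.11. So 3 of these 14 values, 1 each for CDKN2A, CDKN2B and CDKN2C, have the other sign than the mean.

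Over all genes, 3 passed the threshold, against 70 with no filter on low counts, 1 with a minimum mean of 100 counts and 14 with DESeq2. Genes 2-fold higher in both libraries numbered 649, against 1071 with no filter, 170 with a minimum mean of 100 counts, 286 with a prior count of 10, and 1219 to 1718 with 1 library left out. Genes 2-fold lower numbered 290, against 673, 91, 178 and 959 to 1551. Per kilobase of the longest transcript, CDKN1A had 97.2 CPM in the control and CDKN2A 32.0, where exon length gave 72.3 and 9.47. No paired analysis was possible because a single control library, with no replicate number in its title, serves both knockdown libraries. With 15 to 38 counts in a library, depth limits CDKN1C most.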
